A study of Oryza sativa with 8 samples.

Results

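In the deposited values, a set of 186 rice genes had lower RNA levels in anthers and higher RNA levels in panicles of plants with a knockdown of RNA polymerase IV than in wild-type (WT) plants. RNA was sequenced from an indica rice cultivar, Pusa Basmati 1 (PB1), in 4 groups. The groups were nrpd1 knockdown anther, WT anther, nrpd1 knockdown pre-emerged panicle and WT pre-emerged panicle. The anthers were collected before they opened, and knockdown and WT plants were grown and handled alike in a greenhouse. The labels list 2 libraries per group, but the deposited table holds 1 value per gene and group. No standard deviation, n or p-value can therefore be given, and no difference described here has a replicate check. The labels name the targeted gene of the knockdown, nrpd1, and do not say how the knockdown was made or how many lines were used.

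RNA polymerase IV is a plant polymerase related to RNA polymerase II. It makes short transcripts that are turned into double-stranded RNA and diced into small interfering RNAs, which guide DNA methylation to transposons and other repeats. NRPD1 is its largest subunit. Genes near such repeats can be silenced or, in some cases, kept active by these marks, and in rice the pathway is known to affect panicle and reproductive development.

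Members were chosen from the measured values themselves, with values of one gene name summed. The anther change A and the panicle change P are each the difference knockdown minus WT of log2(FPKM + 1), where FPKM is the number of sequenced fragments of a gene divided by its transcript length and by the size of the library. A gene was a member where A was at most -1 and P was at least 1, which needs at least 1 FPKM in WT anther and in knockdown panicle. Of the 30154 gene names in the table, 20322 reached 1 FPKM in some column, and 186 of these, or 0.915%, were members. Of the 186, 49 also met the rule when the columns were scaled to equal totals. Since the rule used all 4 columns, the levels and changes of the members are a description and are not tested. Over all genes compared in anther, 17.6% had an anther change of -1 or lower, and over all genes compared in panicle, 13.2% had a panicle change of 1 or higher. The members made up 5.88% of the 3164 genes lower in knockdown anther and 7.53% of the 2471 genes higher in knockdown panicle. For comparison, 129 genes moved the opposite way, up in knockdown anther and down in knockdown panicle, while 1013 were lower and 336 higher in both tissues of the knockdown.

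In the sources used here the members are identified almost only by locus number. DCL1 was the only member with a gene symbol, and 113 of the genes that reached 1 FPKM had one. The other members carry Os numbers, 13 of them as rows that join several numbers, and none of the 186 names matched an entry of the RefSeq gene table. The lookup was by name, and DCL1 did not match either, so it does not show that the genes lack a known function. No function is given for the members other than DCL1, which are described by position and level. The genome build of the positions is not stated in the sources used here.

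The columns differed in composition, which touches every change given here. Summed FPKM was 341703 in knockdown anther and 636692 in WT anther, and 428187 in knockdown panicle and 382488 in WT panicle. A set of 180 genes, chosen from these data for a high WT anther level and a far lower knockdown panicle level, had a median of 59.8 FPKM in knockdown anther and 499.7 FPKM in WT anther. The same set had a median of 0.048 FPKM in knockdown panicle and 38.7 FPKM in WT panicle. None of the 186 members belonged to that set. The set was chosen for a low knockdown panicle level and the members for a raised one, so an overlap was unlikely from the outset. Few tissue markers could be looked up by symbol, namely 1 of 19 for anther and tapetum, 1 of 5 for pollen, 3 of 13 for panicle meristems and 0 of 6 for green tissue. MSP1, a receptor kinase gene of early anther development, stood at 3.65 FPKM in knockdown anther against 1.15 FPKM in WT anther, and at 8.497 FPKM in knockdown panicle against 2.997 FPKM in WT panicle. The meristem gene OSH1 was highest in WT anther, at 3.78 FPKM, and was below 1 FPKM in the other columns. MST8, LAX2 and MOC1 were below 1 FPKM in every column, so these markers do not tell the tissues apart, and their part in the results was not tested. In bulk tissue, fewer cells of a type and less RNA per cell cannot be told apart.

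Across the 186 members, the median level was 3.82 FPKM in knockdown anther and 14.3 FPKM in WT anther. In panicle the median was 25.1 FPKM in the knockdown and 6.11 FPKM in WT. Over all genes that reached 1 FPKM, the anther medians were 5.16 in the knockdown and 5.61 in WT, and the panicle medians were 5.83 in the knockdown and 5.86 in WT. The members thus lay below the general median in knockdown anther and above it in WT anther and in knockdown panicle. Knockdown panicle was the highest of the 4 columns for 122 members and WT anther for the other 64. The lowest column was knockdown anther for 112 members and WT panicle for 74. These highest and lowest columns follow in part from the rule. Levels spanned a wide range, with anther quartiles of 1.22 and 11.1 FPKM in the knockdown and 6.37 and 38.3 FPKM in WT, and panicle quartiles of 10.3 and 54.9 FPKM in the knockdown and 2.21 and 15.2 FPKM in WT. Together the members held 0.714% of all FPKM in knockdown anther and 1.197% in WT anther. They held 5.56% in knockdown panicle and 1.06% in WT panicle, and without DCL1 the knockdown panicle share was 3.08% and the WT panicle share 1.05%.

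**Figure D1:**
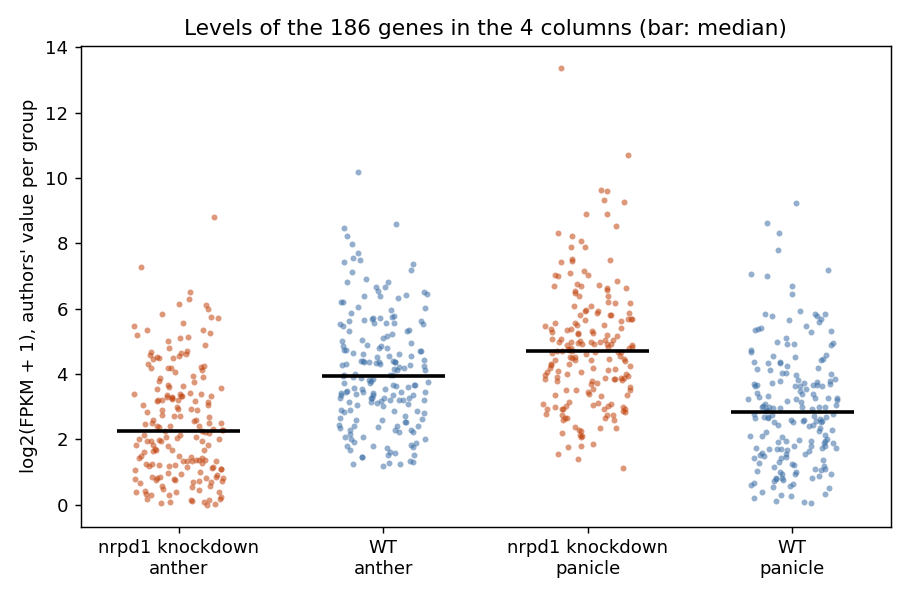
Levels of the 186 genes as log2(FPKM + 1), with 1 point per gene and 1 authors' value per group, for nrpd1 knockdown anther, WT anther, nrpd1 knockdown panicle and WT panicle; the black bar is the median. The medians lie at 3.82, 14.3, 25.1 and 6.11 FPKM, and the point near 13 on the axis in knockdown panicle is DCL1.

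Many members lay close to the threshold. The median change was -1.34 in anther, with quartiles of -1.86 and -1.17, and 1.48 in panicle, with quartiles of 1.19 and 2.11. For 93 members the smaller of the 2 changes was under 1.2, and for 46 it was at least 1.5. In anther 35 members were lower by at least 2 on the log2 scale, and in panicle 54 members were higher by at least 2, but only 5 did both. The sizes of the 2 changes were nearly unrelated within the set, with Pearson's r between A and P of 0.03 and Spearman's rho of 0.01. The 186 genes are not independent replicates, and the rule cut both changes at its thresholds. These coefficients therefore do not tell how the changes relate over all genes. Just inside the threshold were Os06g0165900, with a panicle change of 1.0009, the joined row Os04g0530400,Os04g0530500, with 1.0015, and Os03g0606200, with 1.0021. Just outside were Os01g0747300, with a panicle change of 0.995, Os01g0179000, with 0.994, and Os01g0296450, also with 0.994. The genes just inside and just outside thus differ by less than 0.01 on the log2 scale.

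**Figure D2:**
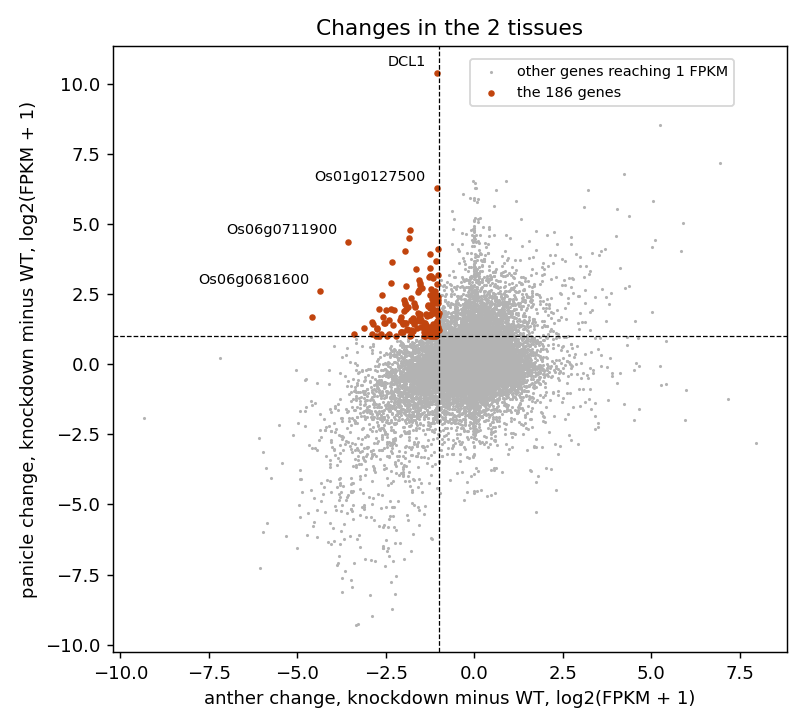
Panicle change (vertical axis) against anther change (horizontal axis), both knockdown minus WT in log2(FPKM + 1), with 1 point per gene that reached 1 FPKM; dashed lines mark -1 in anther and 1 in panicle. The 186 members fill the upper left corner, mostly close to the lines, with DCL1 at a panicle change of 10.36 and Os06g0681600 at an anther change of -4.36.

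In WT plants more members were higher in anther than in panicle, and in the knockdown most were higher in panicle. WT anther was at least 1 above WT panicle on the log2 scale for 112 members, or 60.2%, where 20.4% of all compared genes were. At equal totals this held for 62 of the 186 members. WT anther was at least 1 below WT panicle for 9 members, or 4.84%, where 18.1% of all compared genes were. Among the knockdown columns, anther was at least 1 below panicle for 153 members, or 82.3%, where 22.5% of all compared genes were. It was at least 1 above panicle for 0 members, where 14.0% of all compared genes were. These columns are the ones the rule used, so the shares describe the set and nothing is read from the background. The median difference of anther minus panicle was -2.04 in the knockdown and 1.24 in WT. For 79 members, or 42.5%, the full turn was seen. In these, knockdown anther was at least 1 below knockdown panicle and WT anther at least 1 above WT panicle. Another 65 members had WT tissues within 1 of each other. The rule alone puts the knockdown difference at least 2 below the WT difference in every member. How many of all compared genes made a full turn was not counted.

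**Figure D3:**
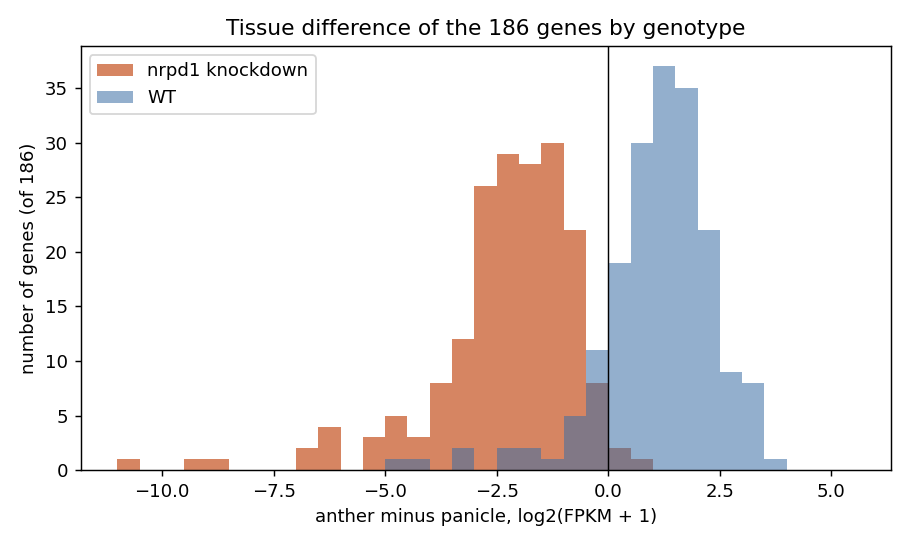
Number of the 186 genes by their anther minus panicle difference in log2(FPKM + 1), in bins of 0.5, for nrpd1 knockdown and for WT. The knockdown differences centre on -2.04 and the WT differences on 1.24, and 9 members lie at -1 or lower in WT.

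Levels across the diagonal were near each other for many members. Knockdown panicle was within 1 of WT anther on the log2 scale for 107 members, and knockdown anther was within 1 of WT panicle for 123, with both true for 85. The median difference of knockdown panicle minus WT anther was 0.47 (quartiles -0.35 and 1.28). That of knockdown anther minus WT panicle was -0.29 (quartiles -1.10 and 0.40). Across the members, Pearson's r of log2(FPKM + 1) was 0.58 for the first pair of columns and 0.72 for the second. These values are across genes and the columns are those the rule used, so they are a description. The same counts and coefficients were not computed over all compared genes. Whether such nearness was more common among the members is therefore not known.

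DCL1 encodes the Dicer-like enzyme that cuts microRNA precursors and stands at chromosome 3, 1194210 to 1205389. It was listed at 5.54 FPKM in knockdown anther and 12.6 FPKM in WT anther, and at 10595 FPKM in knockdown panicle and 7.04 FPKM in WT panicle. The anther change was -1.06, close to the threshold, while the panicle change was 10.36, the largest of all members. A second row at the same position, named DCL1,,Os03g0121700, moved the other way in anther, with a change of 1.08, and hardly moved in panicle. That row stood at 8.93 FPKM in knockdown anther and 3.69 FPKM in WT anther, and at 4.64 FPKM in both panicle columns. Reads from overlapping transcripts at this position may not be separated between the rows, so the DCL1 levels are uncertain. The rows bear different names and were not summed. Membership of DCL1 therefore rests on the first row alone, and a lower anther level of the gene as a whole is not shown. Its 10595 FPKM was also the highest knockdown panicle level of all genes that reached 1 FPKM. Of 38 names listed for small RNA and DNA methylation, 6 were found by symbol, both DCL1 rows included. No name searched for the targeted gene was among them, so its level was not seen here. Of the others found, RDR1 was below 1 FPKM in every column and CMT3 in both anther columns, so they were not compared there. DCL3B, another Dicer-like gene, had changes of 0.29 in anther and 0.03 in panicle. SHL2, which encodes an RNA-dependent RNA polymerase needed for shoot development, stood at 5.06 FPKM in knockdown anther and 5.09 FPKM in WT anther. In panicle it stood at 9.16 FPKM in the knockdown and 8.04 FPKM in WT.

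The 5 members that moved by at least 2 on the log2 scale in each direction were Os06g0711900, Os06g0681600, Os04g0684900, Os09g0522100 and Os02g0285300. Os06g0711900 (chromosome 6, 30113912 to 30115629) had 0.483 FPKM in knockdown anther and 16.6 FPKM in WT anther, with 126 FPKM in knockdown panicle and 5.17 FPKM in WT panicle. Its changes of -3.57 and 4.37 made it the member with the largest change by its smaller side. Os06g0681600 (chromosome 6, 28414033 to 28425454) had 1.33 FPKM in knockdown anther and 46.7 FPKM in WT anther. In panicle it had 271 FPKM in the knockdown and 43.8 FPKM in WT. Its WT levels in anther and panicle were nearly equal, so the knockdown columns set the tissues apart by 6.87 on the log2 scale.

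Os02g0285300 (chromosome 2, 10714988 to 10716773) showed the same order, with 0.914 FPKM in knockdown anther and 8.59 FPKM in WT anther, with 66.7 FPKM in knockdown panicle and 4.46 FPKM in WT panicle. Os04g0684900 (chromosome 4, 34980565 to 34981946) was in WT mainly an anther gene. It had 6.66 FPKM in knockdown anther and 46.1 FPKM in WT anther, with 27.1 FPKM in knockdown panicle and 4.11 FPKM in WT panicle. Os09g0522100 (chromosome 9, 20399281 to 20400388) had 1.27 FPKM in knockdown anther and 10.6 FPKM in WT anther, with 6.67 FPKM in knockdown panicle and 0.041 FPKM in WT panicle. Os06g0156600 (chromosome 6, 2891732 to 2895968) came next, with changes of -1.995 in anther and 2.29 in panicle. It had 1.34 FPKM in knockdown anther and 8.32 FPKM in WT anther, with 13.2 FPKM in knockdown panicle and 1.91 FPKM in WT panicle. Another name is listed at the position of Os06g0156600, so reads may not be separated between them.

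The lowest anther change was that of the joined row Os07g0511201,Os07g0511301 (chromosome 7, 19529359 to 19534659), at -4.59. It had 1.42 FPKM in knockdown anther and 57.1 FPKM in WT anther, with 179.95 FPKM in knockdown panicle and 56.02 FPKM in WT panicle. Reads of the joined genes cannot be divided between them. Os02g0129800 (chromosome 2, 1558052 to 1559144) and Os02g0647950 (chromosome 2, 26079669 to 26085573) had anther changes of -3.39 and -3.10 with smaller panicle changes of 1.09 and 1.29. Os02g0129800 had 0.804 FPKM in knockdown anther and 17.9 FPKM in WT anther, with 12.8 FPKM in knockdown panicle and 5.49 FPKM in WT panicle. Os02g0647950 had 1.24 FPKM in knockdown anther and 18.3 FPKM in WT anther, with 18.6 FPKM in knockdown panicle and 7.02 FPKM in WT panicle. It shares its listed position with another name, so reads may not be separated between them. Os05g0380900 (chromosome 5, 18406422 to 18407490) was far more abundant than these, and like Os02g0129800 it was highest in WT anther. It had 46.5 FPKM in knockdown anther and 353 FPKM in WT anther, with 107 FPKM in knockdown panicle and 50.3 FPKM in WT panicle.

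After DCL1, the highest panicle changes were those of Os01g0127500, Os04g0677600, Os05g0517400, Os06g0711900 and Os01g0668100, all at 12.7 FPKM or less in WT panicle. Os01g0127500 (chromosome 1, 1513137 to 1514500) had 87.6 FPKM in knockdown panicle and 0.146 FPKM in WT panicle, a change of 6.27. In anther it had 0.319 FPKM in the knockdown and 1.77 FPKM in WT, just past the threshold once its rows were summed. Os04g0677600 (chromosome 4, 34612600 to 34613618) had 55.03 FPKM in knockdown panicle and 1.04 FPKM in WT panicle, with 2.197 FPKM in knockdown anther and 10.3 FPKM in WT anther. Os05g0517400 (chromosome 5, 25650633 to 25652560) had 43.5 FPKM in knockdown panicle and 0.989 FPKM in WT panicle, with 0.597 FPKM in knockdown anther and 4.78 FPKM in WT anther. For both genes knockdown panicle was above WT anther as well as above WT panicle. Os01g0668100 (chromosome 1, 27340721 to 27341976) had 234 FPKM in knockdown panicle and 12.7 FPKM in WT panicle, while its anther levels of 4.36 FPKM in the knockdown and 9.86 FPKM in WT gave a change of only -1.02.

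**Figure D4:**
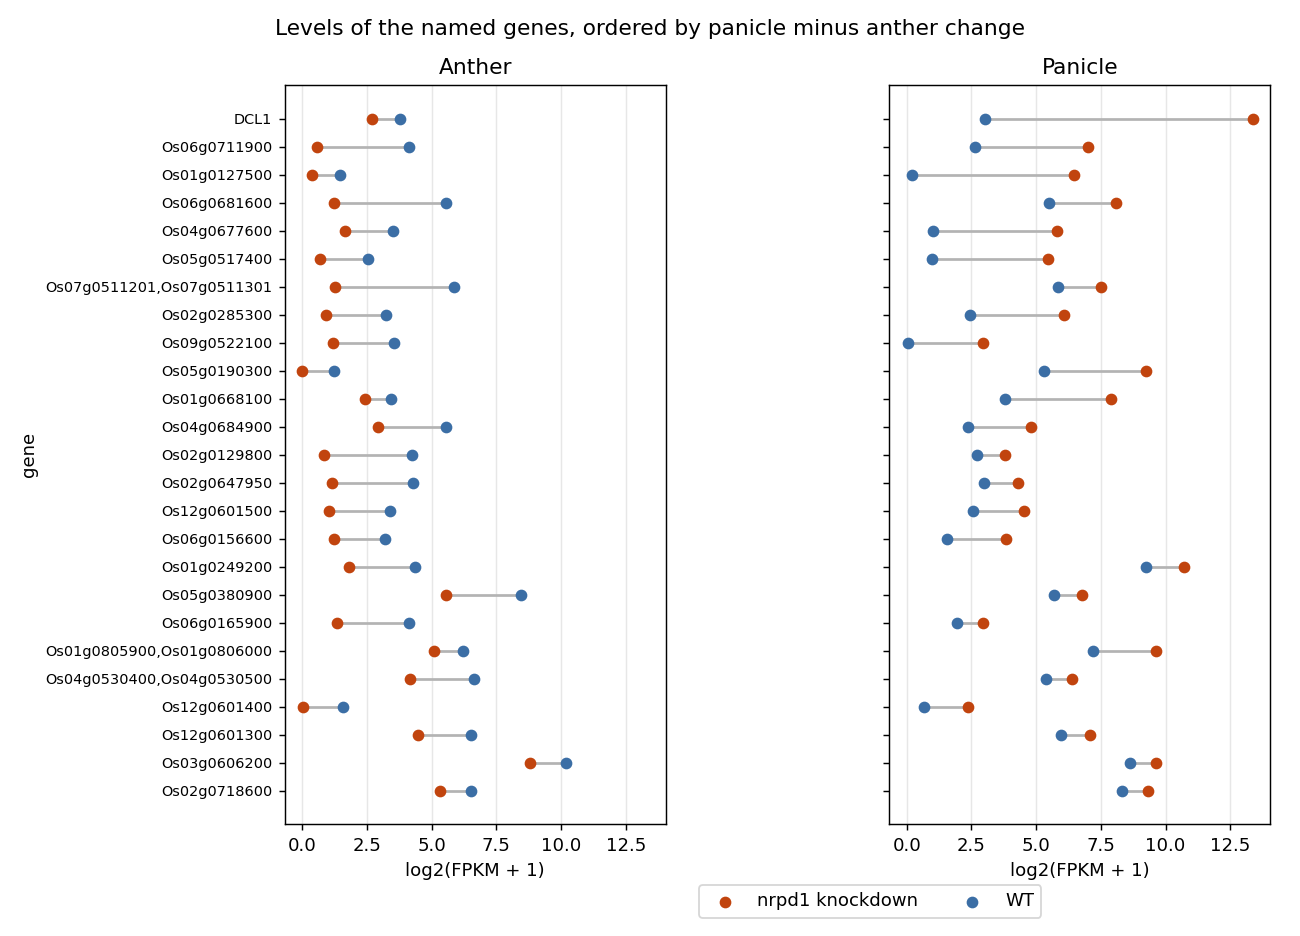
Levels of 25 named members as log2(FPKM + 1), in anther (left) and panicle (right), with nrpd1 knockdown and WT as 1 point each and a line between them; genes run from the largest (top) to the smallest panicle minus anther change. In anther the knockdown point lies left of the WT point in every row and in panicle right of it, as the rule requires, with the widest gap for DCL1 in panicle.

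The most abundant members included several panicle genes. Os01g0249200 (chromosome 1, 8203642 to 8206969) had 2.55 FPKM in knockdown anther and 19.7 FPKM in WT anther, with 1675 FPKM in knockdown panicle and 600.02 FPKM in WT panicle. Os05g0190300 (chromosome 5, 5534521 to 5536125) was listed at 0 in knockdown anther and at 1.38 FPKM in WT anther, and had 609 FPKM in knockdown panicle and 38.9 FPKM in WT panicle. Os02g0718600 (chromosome 2, 29813211 to 29813811) had 39.6 FPKM in knockdown anther and 90.6 FPKM in WT anther, with 639 FPKM in knockdown panicle and 315 FPKM in WT panicle. These genes belong to the 9 members whose WT anther level was at least 1 under that of WT panicle, which had a median of 368 FPKM in knockdown panicle and 38.9 FPKM in WT panicle. In this class the median anther minus panicle difference was -4.998 in the knockdown and -2.38 in WT. That the tissues lay further apart in the knockdown was fixed by the rule for every gene of this class. The joined row Os01g0805900,Os01g0806000 (chromosome 1, 34167898 to 34179837) had 33.4 FPKM in knockdown anther and 72.99 FPKM in WT anther, with 796 FPKM in knockdown panicle and 145 FPKM in WT panicle. Os03g0606200 (chromosome 3, 22740587 to 22743066) was the most abundant member in anther, at 442 FPKM in the knockdown and 1173 FPKM in WT. In panicle it had 783 FPKM in the knockdown and 390 FPKM in WT, so all 4 levels were high. Its anther change of -1.41 turned to 0.037 with quantile normalization and was -0.51 at equal totals.

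At the other end, 14 members were below 1 FPKM both in knockdown anther and in WT panicle. Their medians were 0.286 FPKM in knockdown anther and 2.42 FPKM in WT anther, with 3.75 FPKM in knockdown panicle and 0.506 FPKM in WT panicle. Apart from Os01g0127500 and Os05g0517400, the only one of them above 10 FPKM in any column was Os03g0357500 (chromosome 3, 13832393 to 13835501), named after its values were seen, at 10.7 FPKM in knockdown panicle and 0.454 FPKM in WT panicle. A broader group of 40 members had at least 10 FPKM in all 4 columns. Its medians were 27.8 FPKM in knockdown anther and 85.2 FPKM in WT anther, with 87.3 FPKM in knockdown panicle and 29.96 FPKM in WT panicle. Its largest panicle change was 2.46 and its lowest anther change -2.90, so every larger panicle change belonged to a member under 10 FPKM in some column.

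The 186 genes were spread over all 12 chromosomes. Chromosome 1 held 34 of them, or 1.15% of its compared genes, and chromosome 3 held 27, or 0.999%. The share was highest on chromosome 9, with 14 genes or 1.22%, and lowest on chromosome 10, with 2 genes or 0.196%. In 5 places, members stood next to each other with no other compared gene between them, 11 genes in all. The same count was not made for other sets of genes, so it is a description only. The longest run was of 3 genes on chromosome 12, Os12g0601300 (25310812 to 25316269) and the pair Os12g0601400 and Os12g0601500, which are listed at one position (25325439 to 25329069). Os12g0601300 had 21.1 FPKM in knockdown anther and 91.8 FPKM in WT anther, with 135 FPKM in knockdown panicle and 60.5 FPKM in WT panicle. Os12g0601500 had 1.08 FPKM in knockdown anther and 9.64 FPKM in WT anther, with 22.03 FPKM in knockdown panicle and 4.90 FPKM in WT panicle. Os12g0601400 was fainter, with 0.0199 FPKM in knockdown anther and 1.97 FPKM in WT anther, with 4.13 FPKM in knockdown panicle and 0.57 FPKM in WT panicle. Because Os12g0601400 and Os12g0601500 overlap, their reads may not be separated. The compared genes on either side, Os12g0601200 and Os12g0601800, had anther changes of 0.14 and -0.63 and panicle changes of -0.65 and -0.59. A run ends at the first compared gene that is not a member, so genes beside it never meet the rule.

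On chromosome 9, Os09g0522100 lay 3071 bases from another member, Os09g0522000 (20395213 to 20396209), named for its place beside it. Os09g0522000 had 5.72 FPKM in knockdown anther and 25.3 FPKM in WT anther, with 27.3 FPKM in knockdown panicle and 0.702 FPKM in WT panicle. The pair therefore shared a low WT panicle level and changes of -1.97 and -2.35 in anther and 4.05 and 2.88 in panicle. On chromosome 4, Os04g0684900 likewise lay 2619 bases from Os04g0684800 (34975664 to 34977945), with 7.23 FPKM in knockdown anther and 19.7 FPKM in WT anther, with 98.07 FPKM in knockdown panicle and 29.05 FPKM in WT panicle. The remaining pairs were Os01g0130200 with Os01g0130500 and Os08g0444500 with Os08g0445250.

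The positions listed for the members were short. Their median length was 2386.5 bases, against 4302 bases for all genes that reached 1 FPKM. The other sets of changed genes were also shorter than this, at 2726 bases for the 129 genes of the opposite pattern, 3356 bases for genes lower in both tissues and 3049.5 bases for genes higher in both. Of the members with a single Os number, 34 of 172, or 19.8%, had a number not ending in 00, against 15.2% of the 18681 genes with a single Os number that reached 1 FPKM. Joined rows made up 6.99% of the members and 7.52% of all genes, and 33.9% of the members shared their listed position with another name, against 37.7% of all genes. These shares were not tested.

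For 127 members the level is a sum over several rows with one name. The fainter row was small, with a median of 2.77% of the stronger row in its highest column (quartiles 1.77% and 4.42%). The stronger row taken alone met the rule for 114 of the 127. The fainter row moved in the same directions, by any amount, for 117, but met the rule alone for only 3. Among the named genes, the stronger row fell just short for Os02g0129800 and Os01g0668100. It also fell short for Os06g0165900, with a panicle change of 0.919. In 3 members, named after their values were seen, different rows led in different columns. None of the rows of these 3 members met the rule alone. For Os01g0127500 one row held 85.5 FPKM of the knockdown panicle level and was listed at 0 in WT panicle. The other row had 2.13 FPKM in knockdown panicle and 0.146 FPKM in WT panicle. Their anther changes were -0.56 and -0.80. Os01g0195200 had rows that moved in different directions. Its first row was lower in both tissues, at 11.2 FPKM in knockdown anther against 36.2 FPKM in WT anther, with 0.976 FPKM in knockdown panicle against 3.87 FPKM in WT panicle. Its second row was higher in both, at 5.99 FPKM in knockdown anther against 2.91 FPKM in WT anther, with 23.3 FPKM in knockdown panicle against 4.86 FPKM in WT panicle. The opposite directions of this gene therefore come from adding rows that each moved one way. In Os08g0550850 the row that led in WT anther, at 2.31 FPKM, had 0.175 FPKM in knockdown panicle, where the other row had 3.095 FPKM.

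Membership depended on how the columns were scaled. With each column on an equal median, 161 of the 186 members met the rule. With quantile normalization, which gives every column the same distribution, 122 did. With every column at an equal total FPKM only 49 did, since this scaling moved the median anther change of all compared genes to 0.60, against -0.15 as deposited. All 49 met the rule under the other 2 scalings as well. Their median changes as deposited were -2.03 in anther and 1.79 in panicle. They had medians of 1.33 FPKM in knockdown anther and 10.04 FPKM in WT anther, with 17.1 FPKM in knockdown panicle and 3.81 FPKM in WT panicle. The 49 include the 5 genes that moved by at least 2 each way, and also Os06g0156600, Os07g0511201,Os07g0511301, Os02g0647950, Os04g0677600, Os05g0517400, Os01g0249200, Os12g0601400 and Os12g0601500. DCL1, Os01g0668100 and Os01g0805900,Os01g0806000 met the rule under none of the 3 scalings, as their anther changes then lay above -1. The anther change of DCL1 was -0.96 on equal medians, -0.86 with quantile normalization and -0.26 with equal totals.

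**Figure D5:**
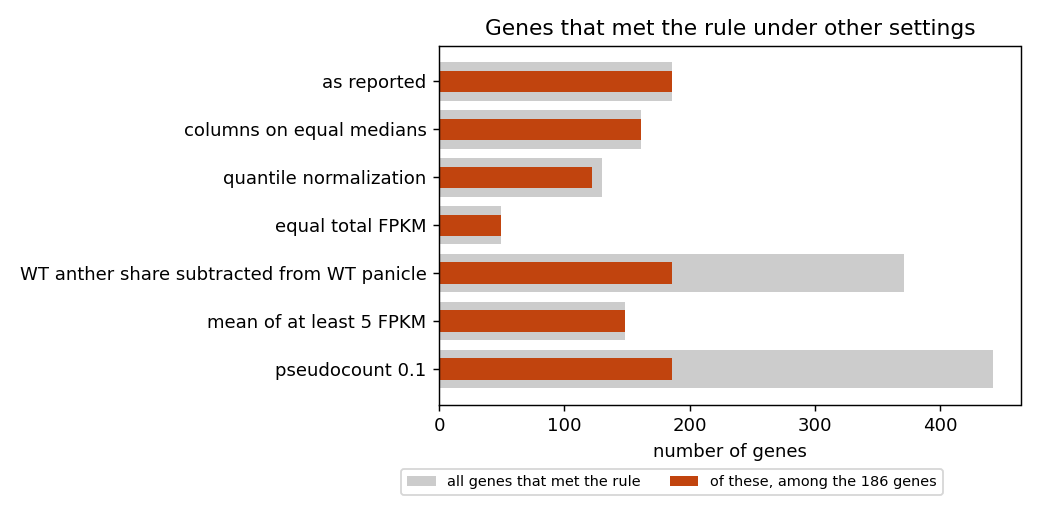
Number of genes that met the rule as reported and under 6 other settings (grey), and how many of them were among the 186 genes (red). The 3 scalings leave 161, 122 and 49 of the 186, while subtracting a share of WT anther from WT panicle and a pseudocount of 0.1 can only add genes.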

How the data were processed

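The deposited table gives FPKM values, 1 per gene row and group, per the file headers; the labels list 8 libraries in 4 groups. Trimmomatic, HISAT2 and Cufflinks 2.2.1 are named in the submitters' processing notes, without roles. The genome build, the annotation, the strand setting and whether or how the authors combined replicates are not given in the sources used here. Low FPKM values carry few reads, but the depth is unknown, so no interval or floor is given.

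Rows with one name were summed (43897 rows, 30154 names). Changes, on the log2(FPKM + 1) scale, come out too small for low genes. Genes were compared where either column reached 1 FPKM, and called at an absolute change of 1. No test was planned. A limma fit was foreseen only for replicate columns, and it would have stayed a description because the rule used the same contrast. It was not run. Members, gene lists and settings were chosen with earlier results of these data known.

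The named genes were members with a symbol, the 6 lowest anther changes, the 6 highest panicle changes, the 6 largest by the smaller change, the 6 highest levels, the 3 nearest the threshold on each side, and runs of at least 3 neighbouring members. Neighbours follow the listed positions. Others are marked. Alternatives were a pseudocount of 0.1, a mean of at least 5 FPKM, equal medians, quantile normalization, equal totals, single rows, no joined rows, thresholds of 0.8 and 2, and subtraction of a share of 7.33% of WT anther from WT panicle. The counting was tested on simulated data. Python 3.11.15, numpy 2.4.6, pandas 2.3.3 and matplotlib 3.10.9 were used.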

Additional observations from a re-analysis of the deposited data

Results flagged for a closer look

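All 186 members are listed here because knockdown minus WT had opposite signs in the 2 tissues. With 1 value per group, the difference between the tissues was not tested. The size of that difference, the panicle change minus the anther change on the log2 scale, was 11.42 for DCL1, 7.94 for Os06g0711900, 7.34 for Os01g0127500 and 6.96 for Os06g0681600. It was 6.60 for Os04g0677600, 6.34 for Os05g0517400, 6.25 for Os07g0511201,Os07g0511301 and 5.96 for Os02g0285300. Values of 5.23 for Os09g0522100, 5.19 for Os05g0190300, 5.11 for Os01g0668100 and 5.08 for Os04g0684900 followed. Next were 4.48 for Os02g0129800, 4.39 for Os02g0647950, 4.32 for Os12g0601500, 4.29 for Os06g0156600 and 4.02 for Os01g0249200.

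The difference was 3.97 for Os05g0380900, 3.79 for Os06g0165900, 3.56 for Os01g0805900,Os01g0806000 and 3.48 for Os04g0530400,Os04g0530500. It was 3.25 for Os12g0601400 and 3.21 for Os12g0601300. The smallest among the named genes were 2.41 for Os03g0606200 and 2.19 for Os02g0718600, close to the 2 that the rule requires of every member.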

How the results depend on the processing

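No paired analysis was possible because each group has a single column that names no replicate. Leaving out single libraries was not run for the same reason. The 186 members became 442 genes with a pseudocount of 0.1, 346 at a threshold of 0.8, 5 at a threshold of 2, 49 at equal totals and 371 with a share of WT anther subtracted from WT panicle. A smaller pseudocount, a lower threshold and the subtraction can only add genes here, so keeping all 186 was fixed by construction. Quantile normalization gave 130 genes, 122 of them members. The median member level in knockdown anther was 6.33 FPKM where a mean of at least 5 FPKM was required. Members at least 1 higher in WT anther than in WT panicle numbered 62 at equal totals, against 112 as deposited. The other 41 recomputed counts and medians stayed within 1.5 times. Of the single changes, that of Os03g0606200 in anther turned to 0.037 with quantile normalization, 34 became smaller than 1, 8 passed 1, all of these in genes just outside the threshold, and 367 kept their side.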
